A study of Mus musculus with 6 samples.

Results

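AMPA receptors are the glutamate-gated channels that carry most fast excitatory transmission in the brain. The 9 genes described here encode the pore-forming subunits (Gria1, Gria2, Gria3 and Gria4), 3 transmembrane AMPA receptor regulatory proteins or TARPs (Cacng2, Cacng3 and Cacng8) and 2 cornichons (Cnih2 and Cnih3). They were chosen by name from the known parts of the receptor, with earlier results of these data known, and are 9 of the 26554 features in the files. RNA came from the ventral posterolateral and posteromedial nuclei (VPL/VPM), the relay of body and face sensation in the thalamus, of wild-type C57 mice. In 1 group of 3 libraries the right VPL/VPM had received 10 nL of type IV collagenase (0.01 U), which digests the basement membrane of vessels and gives a small haemorrhage. In the other group of 3 libraries it had received 10 nL of saline. Both groups were taken at day 14. The injury models central post-stroke pain in mice, and no uninjected tissue was analysed here. The age of the mice is not given in the sources used here, nor is it stated whether a library was 1 animal or a pool. The p-values thus weigh the difference between groups only against the spread between these libraries, which may be technical.

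As background, an AMPA receptor is a tetramer whose subunit makeup sets its conductance and calcium permeability. TARPs and cornichons bind the tetramer, carry it to the surface and slow its closing, and TARPs also tie it to scaffolds of the postsynaptic density. In the sensory thalamus these receptors answer glutamate from the ascending sensory fibres and from the cortex. The genes differ little in the pore, and a single codon there, the Q/R site, sets calcium entry. In Gria2 RNA the enzyme encoded by Adarb1 edits this codon from glutamine to arginine, and receptors that hold the edited subunit let little calcium through. Gene counts do not show editing.

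The Q/R site is shown for the 4 subunits because it is the position that sets Gria2 apart from the others once its RNA is edited. Each line is the coding strand of GRCm38, 5′ to 3′, from the principal coding transcript of GENCODE M21, with the Q/R codon in capitals and 21 bases on each side.
Gria1: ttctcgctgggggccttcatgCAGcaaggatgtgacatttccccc
Gria2: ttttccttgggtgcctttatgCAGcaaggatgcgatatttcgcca
Gria3: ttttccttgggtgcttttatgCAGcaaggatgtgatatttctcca
Gria4: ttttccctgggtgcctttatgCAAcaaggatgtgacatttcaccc
These windows lie in exon 11 of Gria1 (chr11:57243073-57243117, plus strand), exon 11 of Gria2 (chr3:80706890-80706934, minus strand), exon 11 of Gria3 (chrX:41610244-41610288, plus strand) and exon 12 of Gria4 (chr9:4464116-4464160, minus strand). All 4 genomic codons encode glutamine.

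The ends of the coding sequences are shown because scaffold and trafficking proteins bind the last residues of these proteins. Each line holds the last 12 codons before the stop codon, with the last 4 in capitals.
Gria1: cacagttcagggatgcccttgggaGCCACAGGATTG
Gria2: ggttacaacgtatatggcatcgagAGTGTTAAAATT
Gria3: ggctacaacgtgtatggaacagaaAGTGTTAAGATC
Gria4: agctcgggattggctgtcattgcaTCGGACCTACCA
Cacng2: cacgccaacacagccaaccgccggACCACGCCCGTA
Cacng3: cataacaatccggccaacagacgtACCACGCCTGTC
Cacng8: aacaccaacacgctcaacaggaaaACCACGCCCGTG
The last 4 codons of Gria2 and Gria3 differ at 2 of 12 bases and encode the same 4 residues, the end that GRIP and PICK1 proteins bind. The ends of the 3 TARPs differ from each other at 1 or 2 of 12 bases and also encode the same 4 residues, the end that PSD-95, the product of Dlg4, binds. Across whole coding sequences the subunits shared 68.4% to 72.2% of bases in pairs, the TARPs 66.1% to 72.1% and the cornichons 77.1%. The longest run of identical bases between any pair was 37. How reads that match several genes were counted is not given in the sources used here.

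All 9 genes had enough counts to be tested. Levels below are TMM-scaled CPM, the count relative to the library's total after a factor for library composition, and differences are log2 of collagenase over saline, with the standard error (SE) of the fit. The test was edgeR's two-sided quasi-likelihood test, with p adjusted over all 17240 genes tested and a threshold of 0.05. Of the 9 genes, 1 fell after collagenase (Gria3), 0 rose and 8 did not pass, against 0.29% of all tested genes that fell, 2.12% that rose and 2.41% that changed in either direction. Those shares rest on 50 lower and 366 higher calls, and the split moved with the settings: 414 of 917 calls were lower without saline library 3, 4 of 85 without saline library 1, 7 of 142 without collagenase library 2, and 13 of 663 with scaling to a list of pan-neuronal genes. Data were also simulated with the spread fitted to these libraries and with fixed changes in a small set of genes. There, unchanged genes made up more of the calls than the 0.05 threshold implies. That share is not known for the real data, which bears on each call below. The log2 differences of all 9 were below 0, as were those of 53.4% of all genes. Their median was -0.33, beside -0.019 for all genes tested. The lowest saline library was above the highest collagenase library for 3 of the 9 (Gria3, Cnih2 and Cnih3), against 7.5% of all genes, and none was without overlap in the other direction. An unadjusted p under 0.05, with the lower value after collagenase, was found for 4 of the 9 (Gria2 besides those 3), against 4.6% of all genes. In bulk tissue, fewer cells of a type and less RNA per cell cannot be told apart.

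**Figure D1:**
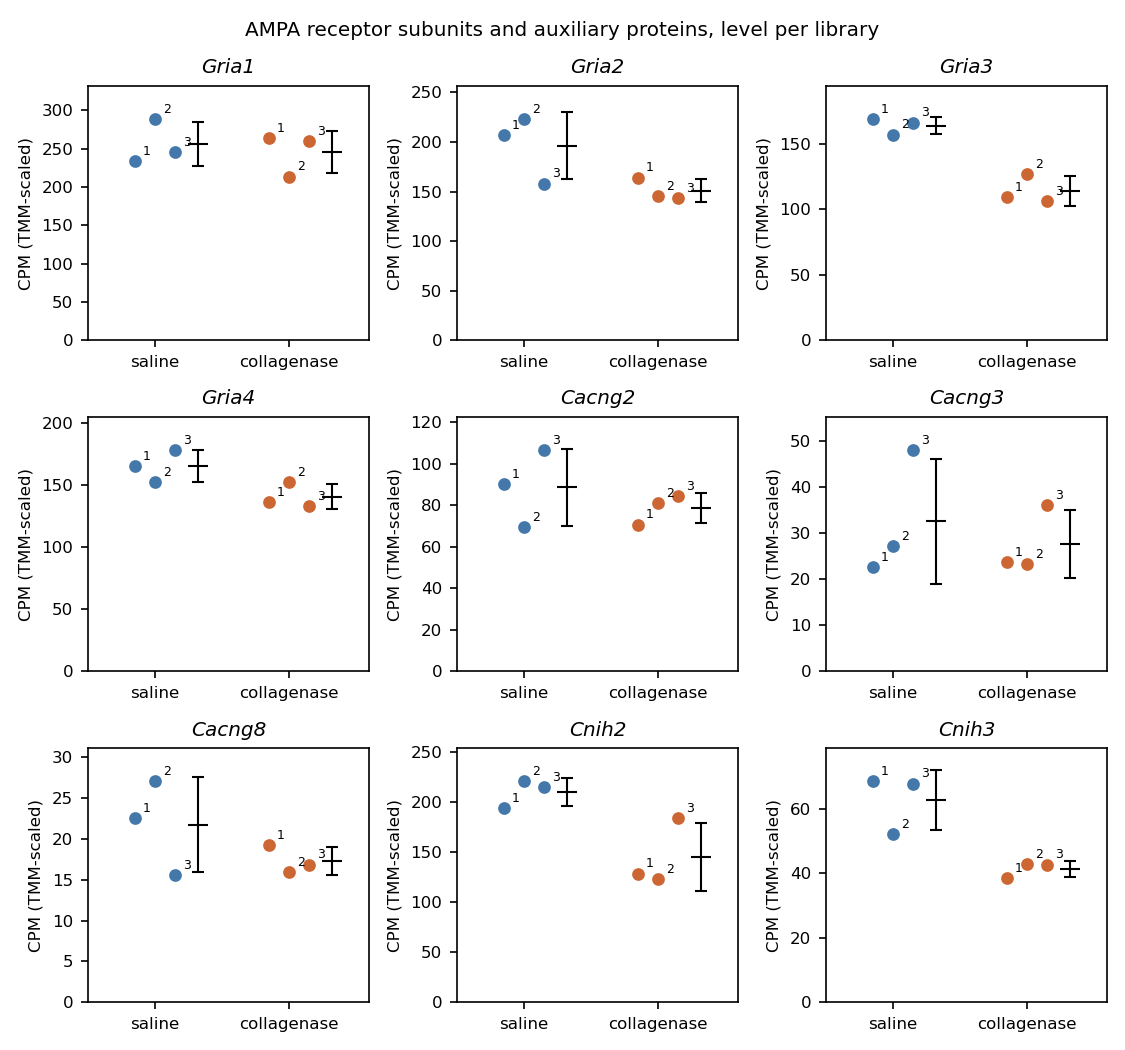
Level of each of the 9 genes in each library, in TMM-scaled CPM. Points are libraries (numbered by replicate), with saline and collagenase side by side, and the bars give the mean and the SD over 3 libraries. Gria3, Cnih2 and Cnih3 are the panels in which the groups do not overlap.

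Gria3 encodes the GluA3 subunit, which pairs mostly with GluA2 in the brain. The gene (ENSMUSG00000001986) lies on chrX:41400854-41678601. Its level was 168.7, 156.9 and 166.0 CPM in saline libraries 1, 2 and 3, and 109.2, 126.6 and 105.9 CPM in collagenase libraries 1, 2 and 3. The groups lay apart: the highest collagenase library was below the lowest saline library. The mean was 163.9 ± 6.17 CPM (SD, n = 3) after saline and 113.9 ± 11.1 CPM (SD, n = 3) after collagenase, or 30.5% lower. The log2 difference was -0.52 (SE 0.10, 95% interval -0.76 to -0.29, edgeR adjusted p = 0.0395). On the authors' per-length scale, FPKM, it read 32.2, 29.5 and 29.9 FPKM after saline and 22.5, 25.7 and 20.4 FPKM after collagenase, again without overlap. The call was lost in 12 of 16 alternative fits, among them 5 of the 6 that left out 1 library (adjusted p 0.0642 to 0.188; without saline library 3, 0.0298), while the difference stayed below 0 in all 16, from -0.61 to -0.28. With the replicate number as a block, the adjusted p from edgeR was 0.101.

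Gria2 encodes GluA2, the subunit whose edited form keeps calcium out (ENSMUSG00000033981, chr3:80681450-80802835). It measured 207.0, 223.0 and 158.2 CPM after saline and 164.2, 145.4 and 143.7 CPM after collagenase. Saline libraries 1 and 2 were above every collagenase library, and saline library 3 lay within their range. The means were 196.1 ± 33.8 and 151.1 ± 11.4 CPM (SD, n = 3), with a log2 difference of -0.38 (SE 0.14, 95% interval -0.70 to -0.06, edgeR adjusted p = 0.314). Without saline library 3 the difference was -0.51 and passed (adjusted p = 0.0270).

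Gria1 encodes GluA1, the subunit that can form channels without GluA2 and that is inserted during potentiation (ENSMUSG00000020524, chr11:57011387-57330244). It measured 233.9, 288.4 and 245.5 CPM after saline and 263.6, 213.5 and 259.3 CPM after collagenase. The libraries of the groups were interleaved. The means were 255.9 ± 28.7 and 245.5 ± 27.8 CPM (SD, n = 3). The log2 difference was -0.06 (SE 0.13, 95% interval -0.35 to 0.23, edgeR adjusted p = 0.918), and it turned above 0 in 7 of 16 alternatives, those by FPKM, by total counts and by the pan-neuronal list among them.

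Gria4 encodes GluA4, a subunit with fast kinetics whose loss gives absence-like seizures in mice (ENSMUSG00000025892, chr9:4417896-4796234). It measured 165.3, 152.3 and 178.0 CPM after saline and 136.3, 152.5 and 133.2 CPM after collagenase. Collagenase library 2 reached the lowest saline library, and the other collagenase libraries were below all of saline. The means were 165.2 ± 12.8 and 140.7 ± 10.4 CPM (SD, n = 3). The log2 difference was -0.23 (SE 0.10, 95% interval -0.47 to 0.01, edgeR adjusted p = 0.430), and it turned above 0 when libraries were scaled to a list of pan-neuronal genes.

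**Figure D2:**
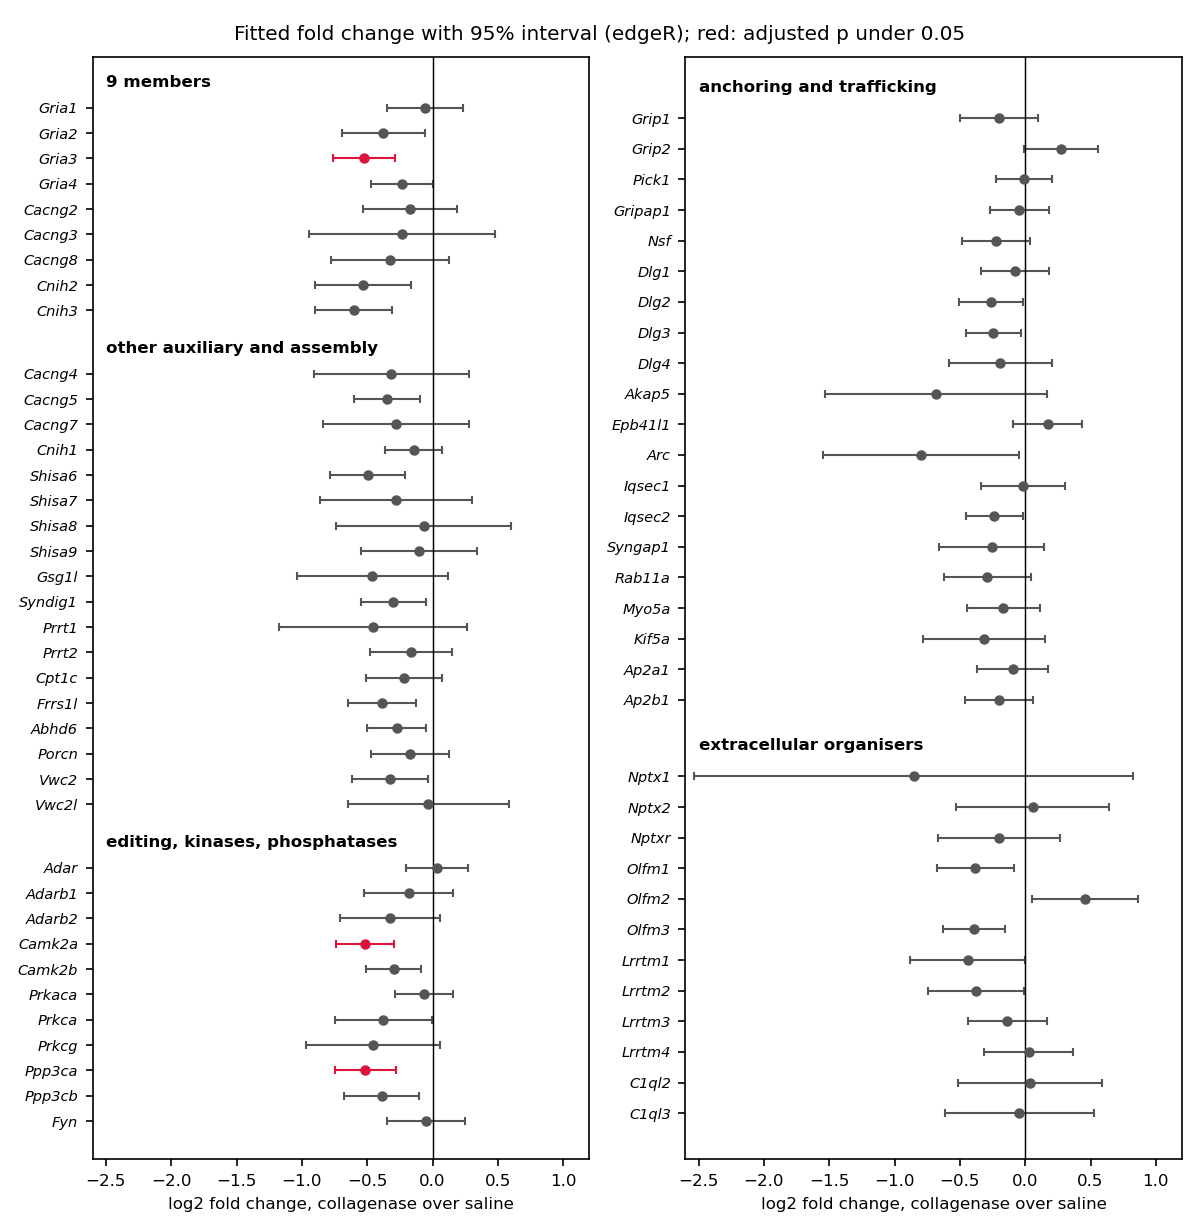
Log2 difference between collagenase and saline for each of the 9 genes, with its 95% interval from the edgeR fit. All 9 points lie below the median of all 17240 genes tested (-0.019), with intervals that exclude 0 for Gria2, Gria3, Cnih2 and Cnih3.

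Cornichons were first known as cargo receptors for export from the endoplasmic reticulum, and Cnih2 and Cnih3 are the members that bind AMPA receptors. Cnih3 (ENSMUSG00000026514, chr1:181352628-181460641) measured 68.6, 52.1 and 67.8 CPM after saline and 38.6, 42.9 and 42.7 CPM after collagenase. The groups did not overlap. The means were 62.9 ± 9.32 and 41.4 ± 2.44 CPM (SD, n = 3), or 34.2% lower, the largest relative difference of the 9 genes. The log2 difference was -0.60 (SE 0.13, 95% interval -0.90 to -0.31), which did not pass with edgeR (adjusted p = 0.0540). It passed in 4 of 16 alternatives and stayed below 0 in all 16.

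Cnih2 (ENSMUSG00000024873, chr19:5092868-5098521) measured 193.9, 221.0 and 215.2 CPM after saline and 128.6, 123.2 and 184.2 CPM after collagenase. No collagenase library reached the lowest saline library, but collagenase library 3 lay close to it. The means were 210.0 ± 14.3 and 145.3 ± 33.8 CPM (SD, n = 3), or 30.8% lower. The log2 difference was -0.53 (SE 0.16, 95% interval -0.90 to -0.16, edgeR adjusted p = 0.189), and without collagenase library 3 it was -0.74 and passed (adjusted p = 0.0378). DESeq2, run as an alternative, called Gria3, Cnih2 and Cnih3 lower (3 of 9, against 0.915% of the genes it tested), and limma on log2 FPKM called 0 of 9 (against 0.141%).

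None of the 3 TARPs passed as reported or in any of the 16 alternatives. Cacng2, which encodes stargazin, the protein missing in stargazer mice, measured 90.1, 69.4 and 106.6 CPM after saline and 70.7, 81.2 and 84.3 CPM after collagenase (ENSMUSG00000019146, chr15:77991748-78120028). All 3 collagenase libraries lay within the saline range. For Cacng2 the log2 difference was -0.17 (SE 0.16, 95% interval -0.53 to 0.19, edgeR adjusted p = 0.757), and it turned above 0 with scaling to the pan-neuronal list.

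Cacng8 encodes TARP gamma-8, the TARP known best from hippocampus (ENSMUSG00000053395, chr7:3390683-3415648). It measured 22.5, 27.0 and 15.5 CPM after saline and 19.2, 15.9 and 16.8 CPM after collagenase. Saline library 3 was the lowest of the 6. Its log2 difference was -0.33 (SE 0.20, 95% interval -0.78 to 0.13, edgeR adjusted p = 0.594).

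Cacng3 encodes TARP gamma-3 (ENSMUSG00000066189, chr7:122670492-122769393). It measured 22.6, 27.2 and 48.0 CPM after saline and 23.6, 23.3 and 36.1 CPM after collagenase. The third library was the highest in each group. On the log2 scale the difference was -0.24 (SE 0.30, 95% interval -0.95 to 0.48, edgeR adjusted p = 0.845), the widest interval of the 9, and it turned above 0 with scaling to the pan-neuronal list and without saline library 3.

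Levels were set between genes on the authors' FPKM scale, which divides by transcript length. In saline tissue Cnih2 was highest at 155.7 ± 13.2 FPKM (SD, n = 3), followed by Gria1 at 43.2 ± 6.48, Gria4 at 35.4 ± 2.18 and Gria3 at 30.6 ± 1.47 FPKM. Neighbours in this stretch of the order did not overlap between libraries, nor did Gria3 and Cnih3. Cnih3 at 21.9 ± 2.94, Gria2 at 18.3 ± 3.86, Cacng2 at 14.7 ± 2.33, Cacng8 at 11.2 ± 3.58 and Cacng3 at 10.6 ± 3.71 FPKM each overlapped the next. After collagenase the order was the same but for Cacng3 and Cacng8, which overlapped and exchanged places. Cnih2 was at 114.7 ± 24.4, Gria1 at 44.2 ± 5.88, Gria4 at 32.1 ± 2.90, Gria3 at 22.8 ± 2.65 and Cnih3 at 15.5 ± 0.418 FPKM (SD, n = 3). These levels depend on the length used. The ratio of count to FPKM corresponds to a mean over libraries of 10345 bases for Gria2 and 5179 bases for Gria3, while their annotated exons span 15548 and 9859 bases. This length also shifted between libraries, from 4982 to 5440 bases for Gria3 and from 4251 to 4780 bases for Gria4. The order above and the FPKM shares below carry these shifts.

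The makeup of the subunit pool was described as the share of each gene in the summed FPKM of Gria1 to Gria4, with no test. Gria3 made up 24.8%, 21.6% and 25.8% of the pool after saline and 18.3%, 23.1% and 18.7% after collagenase. Collagenase library 2 lay inside the saline range, so the groups overlapped. Gria1 made up 31.1%, 37.0% and 33.2% after saline and 40.05%, 33.9% and 41.9% after collagenase, also with overlap. The means moved from 24.1% ± 2.198 to 20.0% ± 2.65 (SD, n = 3) for Gria3 and from 33.8% ± 2.98 to 38.6% ± 4.17 for Gria1. Gria2 stood at 14.3% ± 1.92 and 13.3% ± 0.566 and Gria4 at 27.9% ± 1.88 and 28.1% ± 1.86 (SD, n = 3), and both overlapped between groups. The ratio of Gria3 to Gria4 counts, which needs no scaling between libraries, was 1.02, 1.03 and 0.932 after saline and 0.801, 0.830 and 0.795 after collagenase. That ratio did not overlap between groups, while Gria3 over Gria1, at 0.721, 0.544 and 0.676 against 0.414, 0.593 and 0.409, did. Of 6 ratios between receptor genes that were computed, 5 overlapped, Gria3 over Gria2 among them (0.815, 0.704 and 1.05 after saline, 0.665, 0.871 and 0.737 after collagenase).

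**Figure D3:**
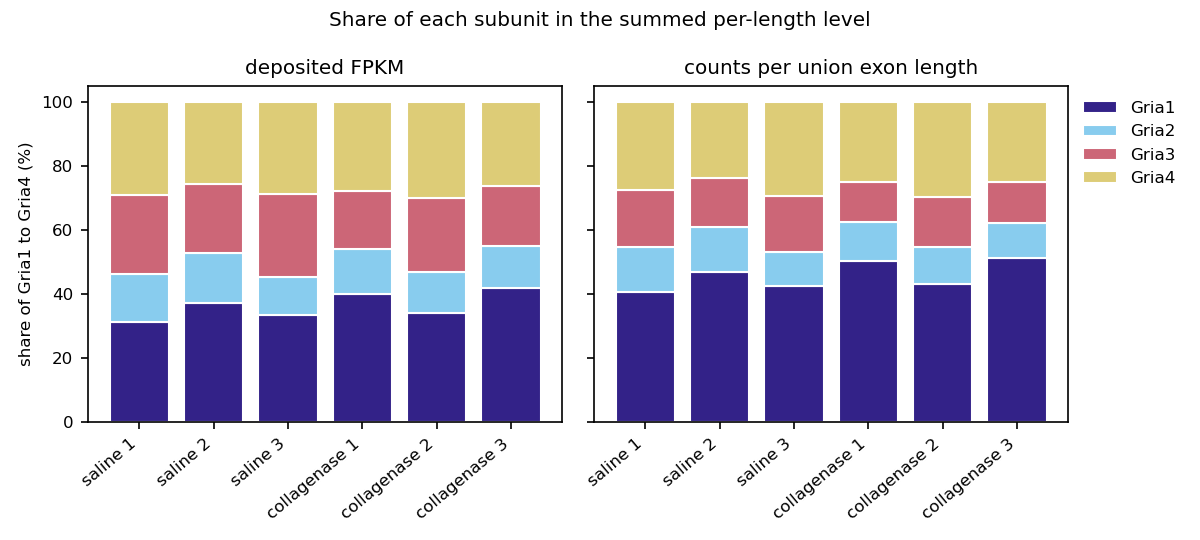
Share of Gria1, Gria2, Gria3 and Gria4 in their summed FPKM, in percent, for each of the 6 libraries. Gria2 is the smallest share in each library (12.1% to 15.7%), and the Gria3 share is lowest in collagenase libraries 1 and 3 (18.3% and 18.7%).

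The other parts of the receptor's machinery were followed through 4 lists. Of 18 other auxiliary and assembly proteins, 0 passed with edgeR, 6 had an unadjusted p under 0.05 (against 12% of all tested genes), and DESeq2 called 2 lower (Shisa6 and Frrs1l, against 0.915%) and limma 0. All 18 log2 differences were below 0, with a median of -0.28. Shisa6, a subunit that holds receptors at the synapse, measured 102.3 ± 8.29 CPM after saline and 72.6 ± 10.2 CPM after collagenase (SD, n = 3; log2 difference -0.49, edgeR adjusted p = 0.108). Frrs1l, a factor for receptor assembly in the endoplasmic reticulum, measured 322.2 ± 34.7 and 246.3 ± 15.7 CPM (SD, n = 3; -0.39, edgeR adjusted p = 0.176). Cacng5, a TARP of the second type, had a log2 difference of -0.35 and Abhd6, a hydrolase that limits surface delivery, -0.27 (edgeR adjusted p = 0.219 and 0.288).

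Of 20 anchoring and trafficking proteins, 0 passed with edgeR, 4 had an unadjusted p under 0.05 (against 12% of all tested genes), and DESeq2 and limma called 0. Their median log2 difference was -0.20, with 18 below 0. Dlg3 and Dlg2, postsynaptic scaffolds, measured 115.3 ± 6.78 and 158.7 ± 11.7 CPM after saline and 97.3 ± 3.38 and 132.4 ± 12.5 CPM after collagenase (SD, n = 3). Iqsec2, an exchange factor at the postsynaptic density, had a log2 difference of -0.24 (edgeR adjusted p = 0.369). Arc, an activity-regulated gene that drives receptor endocytosis, measured 59.8 ± 28.4 CPM after saline and 34.3 ± 6.27 CPM after collagenase (SD, n = 3), and its SD after saline exceeded the difference. Grip1, Grip2 and Pick1, which bind the shared end of Gria2 and Gria3 printed above, had log2 differences of -0.20, 0.27 and -0.01. None of them passed.

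Of 12 extracellular organisers, 0 passed with edgeR, 5 had an unadjusted p under 0.05 in either direction (against 12% of all tested genes), and DESeq2 called 1 lower (Olfm3, against 0.915%) and limma 0. Their median was -0.17, with 8 below 0. Olfm1 and Olfm3, secreted olfactomedins that bind AMPA receptors, measured 624.0 ± 41.1 and 121.7 ± 11.7 CPM after saline and 478.9 ± 69.3 and 92.8 ± 3.48 CPM after collagenase (SD, n = 3). Their log2 differences were -0.38 and -0.39 (edgeR adjusted p = 0.250 and 0.121). Olfm2 went the other way in value, at 41.3 ± 7.34 and 56.8 ± 11.9 CPM (SD, n = 3; log2 difference 0.46, edgeR adjusted p = 0.339), with overlapping groups. Lrrtm2, a synaptic adhesion protein that binds neurexins, had a log2 difference of -0.37 (edgeR adjusted p = 0.404), also with overlap.

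Of 11 genes for RNA editing and for kinases and phosphatases that act on the subunits, 2 fell (Camk2a and Ppp3ca), 0 rose and 9 did not pass, against 0.29% of all tested genes that fell and 2.12% that rose. The median log2 difference was -0.32. Camk2a, the kinase that phosphorylates GluA1 and TARPs during potentiation, measured 776.0, 821.0 and 832.3 CPM after saline and 576.0, 554.1 and 568.8 CPM after collagenase. Its log2 difference was -0.52 (SE 0.10, edgeR adjusted p = 0.0334). Ppp3ca, a catalytic subunit of calcineurin, which dephosphorylates the same proteins, measured 484.0, 514.4 and 512.3 CPM after saline and 384.2, 345.6 and 328.7 CPM after collagenase. Its log2 difference was -0.51 (SE 0.10, edgeR adjusted p = 0.0440). The libraries of both genes lay well apart between groups, and each call held in 4 of 16 alternatives and in 1 of 6 that left out a library (without saline library 3, where 4 of the 11 passed). With the replicate number as a block, 0 of the 11 passed. Their partners Camk2b and Ppp3cb measured 571.1 ± 8.85 and 326.9 ± 47.7 CPM after saline and 464.5 ± 12.5 and 249.7 ± 10.5 CPM after collagenase (SD, n = 3). Neither passed with edgeR (adjusted p = 0.207 for Camk2b and 0.223 for Ppp3cb). DESeq2 called 3 of the 11 lower (Camk2a, Camk2b and Ppp3ca, against 0.915% of the genes it tested) and limma 0. Adarb1, which edits the Gria2 codon printed above, had a log2 difference of -0.18 with overlapping groups (edgeR adjusted p = 0.719).

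Marker genes of the cells in the tissue moved beside these values, and their part in the results was not tested. The thalamic relay list (15 genes, 14 tested) was present in every library, at 3236 to 5143 summed CPM after saline and 3356 to 4025 after collagenase. None of its genes passed with edgeR or DESeq2, none had an unadjusted p under 0.05, and its median log2 difference was -0.15. Of 14 pan-neuronal genes 0 passed with edgeR (2 at an unadjusted p under 0.05, 1 by DESeq2), the median was -0.18, and summed levels of 8127 to 10142 CPM after saline met 6832 to 8210 CPM after collagenase. Scaled to that list, Gria3 had a log2 difference of -0.28 (edgeR adjusted p = 0.198), 5 of the 9 receptor genes stayed below 0 and the median of all genes was 0.229. That count depended on Nrgn, the gene called by DESeq2 (log2 difference -1.44). Scaled to the list without Nrgn, Gria3 was at -0.37 (edgeR adjusted p = 0.257) and 8 of the 9 stayed below 0. All 9 did when scaled to the relay list. These last 2 scalings were added after seeing the data. In the glial lists, 6 of 10 microglial genes and 2 of 11 astrocyte genes (Aqp4 and Gfap) rose, against 2.12% of all tested genes, and the summed microglial level was 306.8 to 337.3 CPM after saline and 597.5 to 832.5 CPM after collagenase.

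Marker lists named for neurons of neighbouring regions also differed between libraries. The summed level of 16 hippocampal and cortical genes was 1055 to 1063 CPM after saline and 646.1 to 737.0 CPM after collagenase. Their median log2 difference was -0.74, and 1 gene (Slc17a7) fell, against 0.29% of all tested genes. Slc17a7 was also the largest part of the sum, at means of 442.4 CPM after saline and 249.1 CPM after collagenase. The defining marker Neurod6 was at 23.0, 39.7 and 0.18 CPM after saline and 3.65, 0.54 and 0.57 CPM after collagenase. It was thus near 0 in saline library 3, the library with the lowest Cacng8 and the lowest saline Gria2. Slc17a7 was at 383.3 CPM in that library, so the sum did not follow Neurod6. The summed level of 14 GABAergic and reticular genes was 910.1 to 1210 CPM after saline and 637.8 to 840.1 CPM after collagenase. By edgeR 1 of them (Dlx1) fell, against 0.29% of all tested genes. Of the 14 log2 differences, 13 were below 0. Ecel1 went the other way without overlap, at 16.5 ± 3.77 and 28.4 ± 1.83 CPM (SD, n = 3; log2 difference 0.79, edgeR adjusted p = 0.0543). DESeq2 called 3 genes of the list lower and Ecel1 higher, and limma called only Ecel1. Neither the hippocampal and cortical sum nor the GABAergic and reticular sum overlapped between groups, and both were lower after collagenase, as was Gria3. The 8 striatal genes summed to 1125 CPM in saline library 3 and to 179.8 to 389.7 CPM in the other 5 libraries. The 8 habenular genes were highest in the third library of each group, at 173.8 and 208.2 CPM, as was Cacng3.

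**Figure D4:**
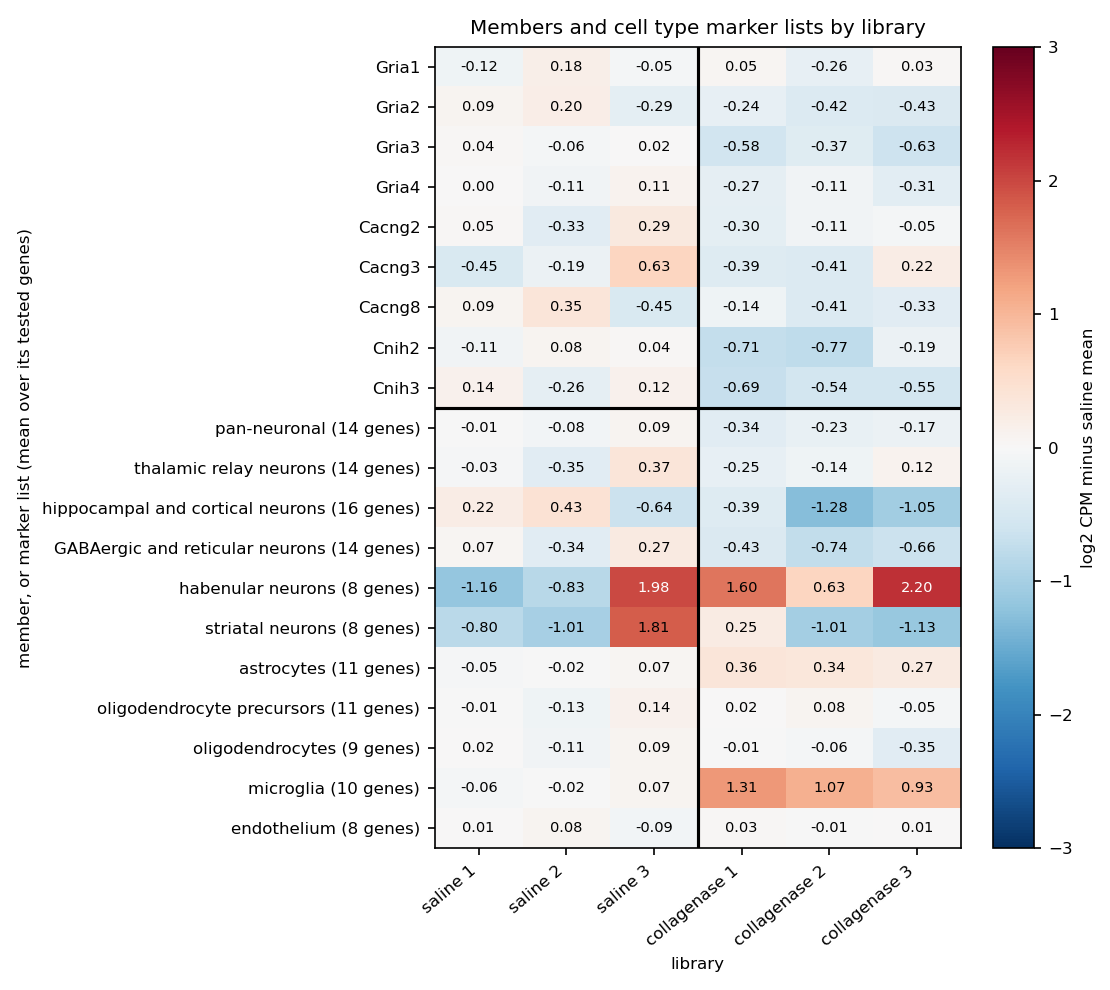
Log2 CPM of each receptor gene, and the mean over the tested genes of each marker list, by library, minus the mean of the saline libraries. The cells show that all receptor genes but Gria1 and Cacng3 are below 0 in each collagenase library, that microglial and astrocyte lists are above 0 there, and that habenular and striatal lists differ most within the saline group.

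Across the 6 libraries, the profile of Gria3 was set against 13774 genes of sufficient level, by the root mean square difference of centred log2 CPM. The 5 nearest were Shisa6 (0.058), Pml (0.062), Mfsd8 (0.063), Mical2 (0.069) and Faah (0.081). Of these, Mical2 and Faah fell after collagenase (log2 differences -0.62 and -0.52, edgeR adjusted p = 0.0192 and 0.0295). Mical2 encodes an actin-oxidising enzyme and Faah the hydrolase of the endocannabinoid anandamide. Among the other receptor genes, Cnih3 ranked 79 and Gria4 ranked 231, while Gria1 ranked 7197 and Cacng3 ranked 11620. The measure uses all 6 libraries, so it holds the difference between groups as well as the spread within them.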

How the data were processed

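The 9 genes and all gene lists were chosen with earlier results of these data known. Per the labels' protocols, poly(A) RNA was captured on oligo(dT) beads and copied with random hexamers, and no step that marks strand is named. Tools listed in the submitters' processing notes, without roles, are HISAT2 2.2.1, StringTie, FastQC and DESeq2, and the build is GRCm38. Neither the annotation release nor the strand setting is given in the sources used here. Per the file headers, the authors deposited a raw count and an FPKM value per feature. Each file held 26554 features (22036 Ensembl identifiers, of which 22022 matched a symbol, and 4518 assembled loci), and 10 to 30 lines of stray annotation text per file were skipped.

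Total counts were 33603076 to 44815451 per library, with TMM factors of 0.898 to 1.063. The test on counts was that of edgeR 4.0.16 under R 4.3.3 (filterByExpr, TMM, robust quasi-likelihood F-test, two-sided, group only, Benjamini-Hochberg adjustment over 17240 genes). Levels are TMM-scaled CPM, and log2 CPM used a prior count of 2. Alternatives were DESeq2 1.42.0, limma 3.58.1 on log2(FPKM + 0.1) and log2(FPKM + 1), which understates changes of low genes (features with a mean FPKM of at least 0.1), DESeq2 size factors, total counts, no filter, scaling to marker lists, a replicate block and leaving out each library. Scalings to the pan-neuronal list without Nrgn and to the relay list were added after seeing the data. The steps were tested on data simulated with the spread fitted to these libraries and with fixed changes in a small set of genes. In that setting unchanged genes made up more of the calls than the threshold implies. Sequences and positions came from GENCODE M21 on GRCm38. Named genes are the 9, every gene of the 4 pathway lists that passed and up to 4 with the smallest p from each, and the 5 nearest profiles (mean log2 CPM of at least 1). Adarb1, Grip1, Grip2 and Pick1 were named for their roles after their values were seen, and Ecel1 for going against its list.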

Additional observations from a re-analysis of the deposited data

How the results depend on the processing

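Gria3 was below 0 in all 16 alternative fits and its call held in 4 of them. Of the 9 receptor genes, 1 passed in edgeR's fit as reported. The count was 3 by DESeq2, 2 without a filter on low counts, 0 by limma with either pseudocount, 0 with total counts, 0 when scaled to the pan-neuronal list with or without Nrgn or to the relay list, 0 with the replicate block, and 0 to 3 when 1 library was left out. The 1 gene that passed was Cnih3 without saline library 2 and Cnih2 without collagenase library 3, and the 3 without saline library 3 were Gria2, Gria3 and Cnih3. For Gria1 the log2 difference turned to 0.033 and 0.032 by FPKM with pseudocounts of 0.1 and 1, 0.016 with total counts, 0.185 and 0.094 when scaled to the pan-neuronal list with and without Nrgn, 0.029 without collagenase library 2 and 0.033 without saline library 2 (-0.122 to 0.033 over the libraries left out). Scaling to the pan-neuronal list also gave 0.020 for Gria4, 0.083 for Cacng2 and 0.021 for Cacng3. With Nrgn left out of that list, they were -0.069, -0.001 and -0.060. Cacng3 was 0.151 without saline library 3 (-0.471 to 0.151 over the libraries left out).

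Of the pathway lists, the auxiliary and assembly list had 2 calls by DESeq2 and 0 to 1 when a library was left out. The anchoring list had 1 call with pan-neuronal scaling (higher) and 0 to 1 with a library left out (lower). The extracellular list had 1 by DESeq2 (lower), 1 with pan-neuronal scaling (higher) and 0 to 1 with a library left out (lower). The editing and kinase list had 3 calls by DESeq2 (lower) and 0 by limma with either pseudocount. It had 0 with total counts, 0 with pan-neuronal scaling, 0 with the block and 0 to 4 with a library left out. Among all genes 416 passed, with 788 by DESeq2, 663 with pan-neuronal scaling, 302 with the block and 85 to 917 with a library left out. Of these, 50 were lower as reported, 180 by DESeq2, 13 with pan-neuronal scaling, 50 with the block and 4 to 414 with a library left out. The causes were not tested. Whether the replicate numbers pair the samples is not stated in the sources used here. Same-numbered libraries had correlations of their deviations of 0.0439, 0.107 and 0.203, and not every library correlated best with its own number. With 3 libraries per group these correlations cannot decide whether the samples were paired. Subunit shares kept the sign of their mean difference with each library left out for Gria1 (3.18 to 7.16 percentage points), Gria2 (-2.07 to -0.267) and Gria3 (-5.57 to -3.17) but not for Gria4 (-0.871 to 1.05), which was -0.327 by counts per exon length.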
